A study of Mus musculus with 16 samples.

Results

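The genes described here are the 10 named neighbours of *Esr1* on mouse chromosome 10, namely *Ppp1r14c*, *Plekhg1*, *Mthfd1l*, *Akap12*, *Zbtb2*, *Rmnd1*, *Syne1*, *Fbxo5*, *Mtrf1l* and *Rgs17*. They were taken by name and position, out of 31274 genes in the expression table. RNA-seq was made from seminal vesicles (SV) of 5-week-old male C57BL/6 mice, in 4 groups of 4 samples. WT and αERKO pups received DES (diethylstilbestrol, a synthetic oestrogen) by subcutaneous injection at 2 µg per pup per day in corn oil on days 1 to 5 of life (WT-DES, αERKO-DES), or corn oil alone (WT-veh, αERKO-veh). In αERKO mice the gene of oestrogen receptor α (ERα), *Esr1*, is disrupted in every cell. The study's methods describe WT litters from purchased pregnant females and αERKO mice from crosses of heterozygotes, so the genotypes were not described as littermates. They also describe 3 pools of mice for WT-DES and individual mice for the other groups, whereas the table holds 4 samples for each group, so that the 4 WT-DES samples may come from fewer than 4 separate pools.

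A gene disrupted in embryonic stem cells is carried through later crosses together with the DNA on either side of it. Where the stem cells came from another strain, the flanking genes of the knockout can keep the alleles of that strain while those of WT mice do not. A difference in such genes between αERKO and WT may then come from the linked segment or from the loss of the receptor, and a difference from the linked segment would be sought with vehicle and with DES alike. The origin of the stem cells and the length of any such segment are not given in the sources used here, and no variant was read, so the segment itself was not measured.

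The 10 genes lie between 3366057 and 5922400 on chromosome 10 of GRCm38 (GENCODE M21), on both sides of *Esr1*, which spans 4611593 to 5005614. *Ppp1r14c*, *Plekhg1*, *Mthfd1l*, *Akap12*, *Zbtb2* and *Rmnd1* lie before its start, and *Syne1*, *Fbxo5*, *Mtrf1l* and *Rgs17* lie after its end. *Syne1* is the nearest of them, 15.3 kb away, and *Ppp1r14c* the farthest, 1.15 Mb away. Their products have varied roles. *Akap12*, *Plekhg1*, *Ppp1r14c* and *Rgs17* encode signalling proteins, *Syne1* a protein that links the nucleus to the cytoskeleton, *Zbtb2* and *Fbxo5* regulators in the nucleus, and *Mthfd1l*, *Mtrf1l* and *Rmnd1* mitochondrial proteins.

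ERα binds DNA at the oestrogen response element, and also acts through other factors. The sequences before the starts of 3 of the genes are shown because, in the FPKM as deposited, *Plekhg1* was higher and *Zbtb2* and *Mtrf1l* lower with DES in WT, although the calls of *Zbtb2* and *Mtrf1l* did not hold under another scaling given with their values. They are the 250 bases before a RefSeq start on GRCm38.p6, with each match to GGTCA or its reverse complement TGACC, a single arm of that element, in capitals. A match describes letters and not binding.

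Plekhg1 (chr10:3872417-3872666, plus strand): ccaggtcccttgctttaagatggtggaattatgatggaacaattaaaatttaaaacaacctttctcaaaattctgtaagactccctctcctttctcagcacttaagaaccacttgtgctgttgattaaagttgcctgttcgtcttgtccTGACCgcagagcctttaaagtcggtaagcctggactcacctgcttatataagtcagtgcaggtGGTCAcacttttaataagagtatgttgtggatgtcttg

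Zbtb2 (chr10:4388109-4388358, minus strand): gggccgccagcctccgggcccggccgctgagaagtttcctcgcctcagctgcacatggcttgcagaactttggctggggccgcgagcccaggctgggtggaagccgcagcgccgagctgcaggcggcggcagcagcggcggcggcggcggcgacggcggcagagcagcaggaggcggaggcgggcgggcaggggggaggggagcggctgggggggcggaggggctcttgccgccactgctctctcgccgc

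Mtrf1l (chr10:5823944-5824193, minus strand): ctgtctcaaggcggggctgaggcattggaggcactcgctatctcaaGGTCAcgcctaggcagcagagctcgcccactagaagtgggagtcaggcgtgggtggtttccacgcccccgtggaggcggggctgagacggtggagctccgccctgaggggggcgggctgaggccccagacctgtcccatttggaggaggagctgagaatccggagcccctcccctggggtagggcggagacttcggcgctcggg

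*Plekhg1* has TGACC 101 bases and GGTCA 38 bases before this start, which lies inside the annotated gene, *Mtrf1l* has GGTCA 204 bases before its start, and *Zbtb2* has no match. The GC content was 41.2% in the *Plekhg1* window, 68.0% in that of *Mtrf1l* and 77.2% in that of *Zbtb2*. The whole element, GGTCA followed after any 3 bases by TGACC, was searched on both strands and was found in 0 of the 11 windows of 9 of the 10 genes, and in 0.0639% of the 32851 windows of all genes. At least 1 arm was found in 7 of the 11 windows, of 6 genes, and in 35.2% of all windows. *Akap12*, which was also higher with DES in WT, had no window here and was not searched.

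The deposited values are FPKM, the fragments of a gene scaled to transcript length and to the fragments mapped. A limma model of log2(FPKM + 1) over the 16 samples tested 15988 genes, those whose group mean exceeded 1 FPKM in any group. Adjusted p values are Benjamini-Hochberg values from this model over the 15988 genes unless another setting is named, in which case they come from the model of that setting over the genes it tested, and a gene was called at an adjusted p of at most 0.05. Every log2 change is on the log2(FPKM + 1) scale, which understates the change of genes at low FPKM. FPKM keeps no depth, so the precision of a value rests on the spread between 4 samples. As a check of the labels, *Esr1* lay at 0.91 to 1.75 FPKM in the αERKO samples and at 2.81 to 19.6 in the WT samples. Of the 10 flanking genes 8 passed the minimum. *Syne1* and *Rgs17* did not, and *Ppp1r14c* passed it only through WT-DES and αERKO-veh, the groups in which it was highest, so its calls against the other groups are given as values and add no weight to a count. The mean FPKM over all samples ranged from 0.194 for *Syne1* to 13.2 for *Akap12*.

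**Figure D1:**
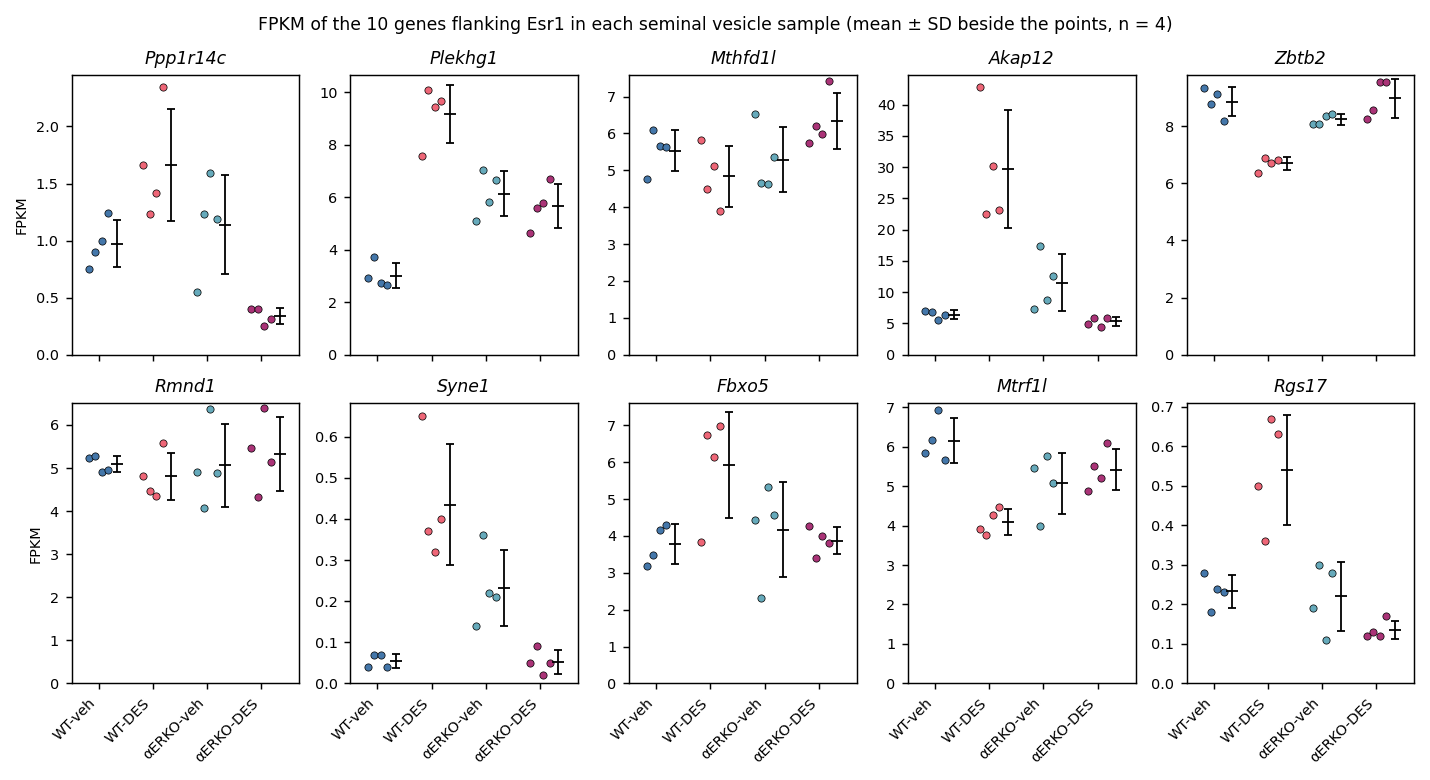
FPKM (linear axis from 0) of the 10 genes in their order along chromosome 10; each point is 1 sample, and the bar beside them is the mean ± SD of 4 samples. *Plekhg1* and *Akap12* were lowest in WT-veh or αERKO-DES and highest in WT-DES, whereas *Zbtb2* and *Mtrf1l* were lowest in WT-DES.

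With vehicle, 2 of the 8 tested genes differed between αERKO and WT, against 26.1% of all genes tested. Both were higher in αERKO-veh. Called genes with higher levels made up 10.8% of all genes tested, and genes called in either direction with an added 1.5-fold difference in mean FPKM 7.12%. Over the 8 genes the median log2 change was 0.03, beside −0.02 over all genes tested.

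*Plekhg1* (3740364 to 3967303, plus strand) encodes a guanine nucleotide exchange factor. It was at 2.93, 3.71, 2.74 and 2.65 FPKM in WT-veh and at 5.09, 7.02, 5.80 and 6.64 in αERKO-veh. All αERKO-veh samples were above all WT-veh samples, as for 2 of the 8 genes and, in either direction, for 29.7% of all genes tested. The means differed 2.04-fold. The log2 change was 0.83 (SE, the standard error of the model, 0.12, 95% interval 0.57 to 1.09, limma adjusted p = 0.00301), and no omission of a single sample ended this call. In αERKO-DES the levels were 4.63, 5.60, 5.77 and 6.69, within the range of αERKO-veh except for the lowest sample. They too were all above WT-veh, by a log2 change of 0.73 (limma adjusted p = 0.00407, 8.06% of all genes called), although both comparisons use the WT-veh samples. Both groups of αERKO mice therefore had *Plekhg1* between the levels of WT-veh and WT-DES, the latter being 7.56, 10.1, 9.42 and 9.65. *Plekhg1* overlaps 3 annotated genes on the other strand, and whether the counting used strand is not stated.

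*Akap12* (4266380 to 4359470, plus strand) encodes a scaffold for protein kinases A and C. It was at 7.02, 6.79, 5.55 and 6.36 FPKM in WT-veh and at 7.28, 17.5, 8.69 and 12.5 in αERKO-veh. The groups did not overlap, but the lowest αERKO-veh sample was close to the highest WT-veh sample and the αERKO-veh samples were spread widely. The log2 change was 0.68 (SE 0.23, 95% interval 0.20 to 1.17, limma adjusted p = 0.0389) and the means differed 1.79-fold. Without αERKO-veh sample 2, the highest, the log2 change was 0.47 and was not called (limma adjusted p = 0.137). The call was also lost without αERKO-veh sample 4 (limma adjusted p = 0.0965) and without WT-veh sample 1, 2, 3 or 4 (limma adjusted p = 0.0579, 0.0552, 0.101 and 0.0805). Several other settings ended it too, among them a replicate block, quantile normalization and no minimum on FPKM, as listed in the closing section.

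Sample 2 of αERKO-veh was also the highest of its group for *Plekhg1*, at 7.02 FPKM, and for *Syne1*. It had the highest summed FPKM of its group for fibroblast and stroma markers, 1036 beside 632 to 914, for endothelium markers, 185 beside 124 to 139, and for adipose markers, 1146 beside 91.6 to 465. Of these lists limma called 0 of 8 fibroblast, 2 of 8 endothelium and 0 of 8 adipose genes in αERKO-veh versus WT-veh (at an unadjusted p below 0.05, 1 fibroblast and 0 adipose genes), and every listed gene was above 0 in at least 1 sample. SV secretion sums were 29295 to 46528 in αERKO-veh and 49304 to 57300 in WT-veh, with 0 of 8 genes called by limma (0 also at an unadjusted p below 0.05), and luminal and general epithelium sums 1323 to 1637 and 1661 to 1845, with 3 of 8 called (1 higher and 2 lower), neither list overlapping between the groups. Skeletal muscle sums had a median of 1574 in αERKO-veh and 773 in WT-veh, with 1 of 8 genes called higher. Leukocyte sums had a median of 72.0 and 111, with 1 of 8 called lower, and both lists overlapped between the groups. The part of other cell types in the levels of *Akap12* was not tested, and in whole tissue a changed share of a cell type and changed RNA per cell cannot be told apart.

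**Figure D2:**
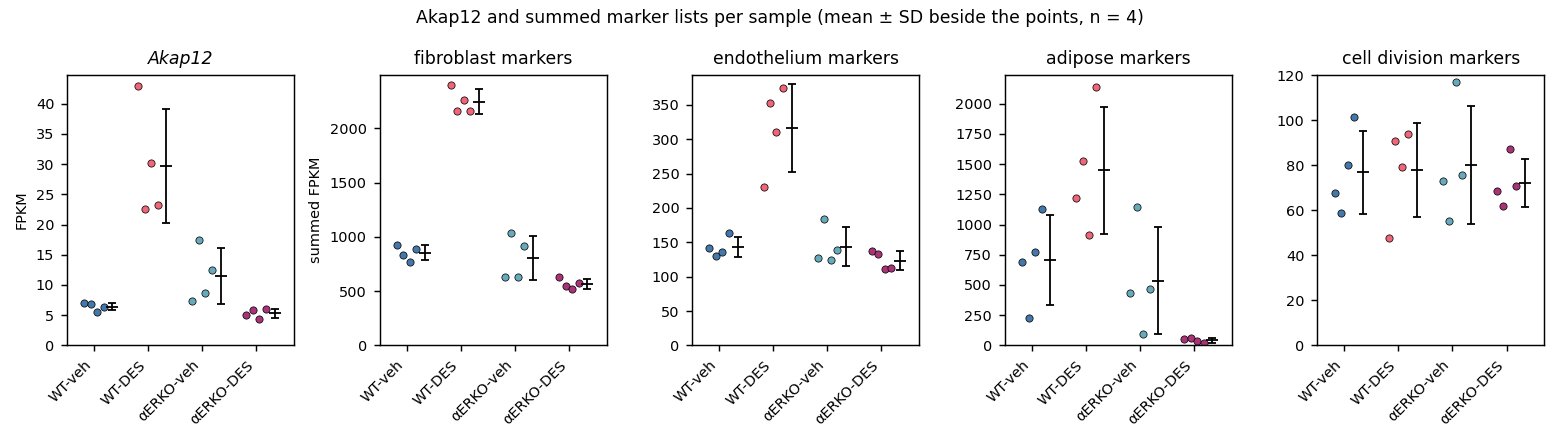
FPKM of *Akap12* and the summed FPKM of marker lists (8 genes each, 10 for cell division) per sample, with the mean ± SD of 4 samples beside the points and axes from 0. *Akap12* and the fibroblast, endothelium and adipose sums were highest in WT-DES. Within αERKO-veh the highest *Akap12* sample also had the highest of these 3 sums. Within WT-DES the highest *Akap12* sample had the highest fibroblast sum but the lowest endothelium sum. Cell division sums overlapped in all groups.

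Both called genes have long transcripts, the longest being 7369 nt for *Plekhg1* and 6195 nt for *Akap12*, beside a median of 3240 nt over the 15009 tested genes with a known length. Across those genes the log2 change of αERKO-veh versus WT-veh rose with length (Spearman correlation 0.55 across genes, which are not independent replicates), and the median over the 10% of genes with the longest transcripts was 0.31. After a correction of every sample for its trend on length, *Plekhg1* was higher by 0.57 (limma adjusted p = 0.00461), beside 11.5% of all genes called. The log2 change of *Akap12* was then 0.48 (limma adjusted p = 0.139). *Zbtb2*, with 6794 nt, was 0.33 lower on the log2 scale after the correction and was called (limma adjusted p = 0.0108), which it was not before. The cause of the trend on length was not tested.

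The other 6 tested genes were not called with vehicle. *Zbtb2* (4367075 to 4388108, minus strand), a zinc finger protein of the BTB family that acts on transcription, was at 9.34, 8.77, 9.12 and 8.18 FPKM in WT-veh and 8.07, 8.08, 8.36 and 8.44 in αERKO-veh. The groups overlapped and the log2 change was −0.09 (95% interval −0.23 to 0.04). *Rmnd1* (4401915 to 4432388, minus strand), needed for translation in mitochondria, was at 5.24, 5.28, 4.92 and 4.96 in WT-veh and 4.90, 4.08, 6.38 and 4.89 in αERKO-veh, a log2 change of −0.02 (95% interval −0.27 to 0.23). Of the tested genes among the 10, *Rmnd1* lies nearest to *Esr1*, 179 kb away. *Mthfd1l* (3973118 to 4167081, plus strand), an enzyme of mitochondrial folate metabolism, changed by −0.06 (95% interval −0.32 to 0.20).

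*Mtrf1l* (5811887 to 5823910, minus strand), a release factor of mitochondrial translation, was at 5.83, 6.16, 6.94 and 5.67 FPKM in WT-veh and 5.47, 4.0, 5.75 and 5.07 in αERKO-veh. Sample 3 of αERKO-veh lay within the WT-veh range and the others below it. The log2 change was −0.24 (95% interval −0.46 to −0.03, limma adjusted p = 0.0874). With sample weights it was called (−0.27, limma adjusted p = 0.00240). *Fbxo5* (5799160 to 5805600, minus strand), an inhibitor of the anaphase-promoting complex, had a log2 change of 0.08 (95% interval −0.32 to 0.48), and *Ppp1r14c* (3366057 to 3464975, plus strand), an inhibitor of protein phosphatase 1, one of 0.10 (95% interval −0.24 to 0.44).

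With DES, 7 of the 8 tested genes differed between αERKO and WT, against 74.0% of all genes tested. In αERKO-DES versus WT-DES 3 were higher, *Mthfd1l*, *Zbtb2* and *Mtrf1l*, and 4 were lower, *Ppp1r14c*, *Plekhg1*, *Akap12* and *Fbxo5*. Called genes made up 37.8% of all genes tested on the higher side and 36.2% on the lower side. The 4 lower genes also passed the 1.5-fold threshold, as did 53.4% of all genes. The median log2 change of the 8 genes was −0.18, beside 0.00 over all genes tested.

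*Akap12* was at 42.9, 22.5, 30.2 and 23.2 FPKM in WT-DES and at 4.95, 5.93, 4.42 and 5.95 in αERKO-DES. The groups were far apart, with means 5.59-fold lower in αERKO-DES and a log2 change of −2.24 (SE 0.23, limma adjusted p = 4.19e-07). *Ppp1r14c* was at 1.66, 1.23, 1.42 and 2.35 in WT-DES and at 0.40, 0.40, 0.25 and 0.31 in αERKO-DES, a log2 change of −0.98 (SE 0.16, limma adjusted p = 4.90e-05), which was −0.31 and was not called under quantile normalization (limma adjusted p = 0.0800). *Plekhg1* was lower in every αERKO-DES sample than in every WT-DES sample, by −0.61 on the log2 scale (SE 0.12, limma adjusted p = 0.000354). After the correction for length this change was −0.36 (limma adjusted p = 0.00182), under quantile normalization −0.33 (limma adjusted p = 0.0232) and after a rescaling described with the higher genes −0.95. For *Plekhg1* and *Akap12* the difference between genotypes thus had one sign with vehicle and the opposite sign with DES.

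Some marker lists of other cell types moved in the direction of these 3 genes and some the other way, beside 74.0% of all genes called in αERKO-DES versus WT-DES. In αERKO-DES versus WT-DES all 8 fibroblast and stroma, 8 endothelium, 8 leukocyte and 8 adipose markers were called lower, while all 8 SV secretion, 7 of 8 epithelium, 6 of 8 smooth muscle and 2 of 8 skeletal muscle markers were called higher. Fibroblast and stroma sums were 2159 to 2402 FPKM in WT-DES and 521 to 627 in αERKO-DES, and leukocyte sums 406 to 596 and 46.7 to 69.7. WT-DES sample 1, the highest for *Akap12* and the lowest of its group for *Plekhg1* and *Fbxo5*, stood apart in its muscle markers. Its sum was 3812 FPKM for smooth muscle, beside 848 to 1331 in the other WT-DES samples, and 338 for skeletal muscle, beside 39.3 to 97.5. It had the highest fibroblast and stroma sum of its group but the lowest endothelium sum, 230 beside 310 to 375. For adipose markers its sum was 1216, beside 911 to 2135. Without this sample the log2 changes were −2.05 for *Akap12*, −0.69 for *Plekhg1* and −0.97 for *Ppp1r14c*, all called, and 7 of the 8 genes were still called. The part of other cell types in these differences was not tested.

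*Fbxo5* was at 3.84, 6.73, 6.13 and 6.97 FPKM in WT-DES and at 4.28, 3.41, 4.0 and 3.80 in αERKO-DES, with WT-DES sample 1 among the αERKO-DES samples. The log2 change was −0.48 (SE 0.19, limma adjusted p = 0.0305), and it was not called without WT-DES sample 2, 3 or 4 or αERKO-DES sample 2 or 4 (limma adjusted p = 0.0811, 0.0632, 0.0880, 0.0750 and 0.0552), nor under quantile normalization (−0.03, limma adjusted p = 0.8998). The WT-DES sample that was lowest for *Fbxo5* also had the lowest summed FPKM of the 10 cell division markers in its group, 47.8 beside 79.3 to 93.8. In αERKO-veh, sample 2 was lowest and sample 3 highest for both *Fbxo5*, at 2.32 and 5.33, and the cell division sum, at 55.1 and 117. In the remaining groups the match was partial. Sample 4 of WT-veh was highest for both, but *Fbxo5* was lowest in sample 1, at 3.19, and the sum in sample 2, at 58.7. Sample 2 of αERKO-DES was lowest for both, but *Fbxo5* was highest in sample 1, at 4.28, and the sum in sample 3, at 87.2. Of the 10 cell division markers limma called 0 in αERKO-DES versus WT-DES, and 0 had an unadjusted p below 0.05, and the part of dividing cells in *Fbxo5* was not tested.

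*Zbtb2* was at 6.37, 6.90, 6.71 and 6.82 FPKM in WT-DES and at 8.25, 8.55, 9.53 and 9.56 in αERKO-DES. No samples overlapped, as for 5 of the 8 genes and 66.5% of all genes tested, and the log2 change was 0.37 (SE 0.06, limma adjusted p = 8.55e-05). After the correction for length it was 0.61 (limma adjusted p = 5.68e-07). *Mtrf1l* was at 3.90, 3.75, 4.27 and 4.47 in WT-DES and at 4.87, 5.51, 5.20 and 6.09 in αERKO-DES, 0.33 higher (SE 0.10, limma adjusted p = 0.00768). *Mthfd1l* was at 5.82, 4.50, 5.12 and 3.90 in WT-DES and at 5.73, 6.20, 5.98 and 7.42 in αERKO-DES, with overlapping samples and a log2 change of 0.34 (SE 0.12, limma adjusted p = 0.0208). Its call was lost without WT-DES sample 2 or 4 or αERKO-DES sample 4 (limma adjusted p = 0.0508, 0.0767 and 0.0708).

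The size and the call of the differences of these 3 genes depended on the scale of the samples. Summed FPKM was 375207 to 437619 in WT-DES and 531467 to 622477 in αERKO-DES. A rescaling to equal sums that left out the 20 genes of highest mean FPKM shifted the median log2 change of all genes by −0.35 for αERKO-DES versus WT-DES, and by 0.17 with vehicle. The changes with DES of *Zbtb2*, *Mtrf1l* and *Mthfd1l* were then 0.03, 0.02 and 0.01 and were not called, while the 4 lower genes were still called. The median of all genes was then −0.34, so that these 3 still lay above it. Under quantile normalization 4 genes were called higher and 2 lower. *Rmnd1*, at 4.82, 4.47, 4.35 and 5.58 in WT-DES and 5.46, 4.32, 6.39 and 5.13 in αERKO-DES, changed by 0.12 (95% interval −0.13 to 0.37, limma adjusted p = 0.374), by −0.20 after the rescaling and by 0.59, then called, under quantile normalization (limma adjusted p = 0.000897).

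**Figure D3:**
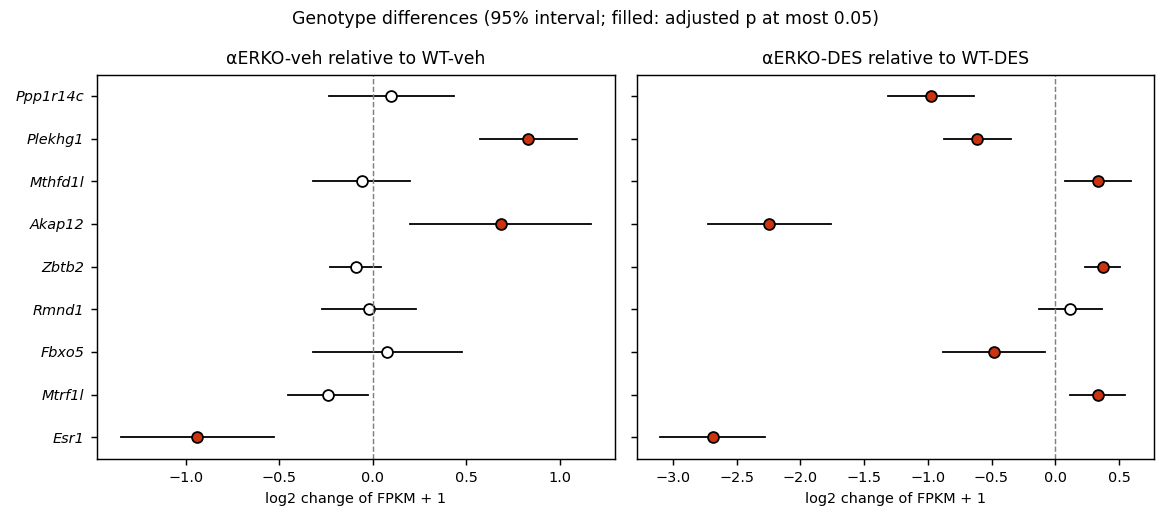
Log2 changes of FPKM + 1 (points, with 95% intervals) of the 8 tested flanking genes, in the order of their position, and of *Esr1*, for αERKO-veh versus WT-veh on the left and αERKO-DES versus WT-DES on the right; filled points had an adjusted p of at most 0.05, and the horizontal axes differ. Only *Esr1* was called on the same side in both, while *Plekhg1* and *Akap12* were called on opposite sides.

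Over both treatments, 0 of the 8 genes were called with the same sign in αERKO versus WT, as were 4.98% of all genes tested, and 2 were called with opposite signs, as were 14.6%. These comparisons share no samples. The count with the same sign stayed at 0 under each of the 13 other settings tried and without each of the 16 samples, and was also 0 at an unadjusted limma p below 0.05. Beside a share of 4.98%, a count of 0 among 8 genes carries no weight. The comparison with DES also holds the change with DES in WT, which can hide or turn a constant difference between genotypes. *Plekhg1*, for example, was above WT-veh in both αERKO groups, yet was called with opposite signs. Whether the genotype difference itself changed with treatment was tested as the interaction, the log2 change of αERKO versus WT with vehicle minus that with DES. It was called for 6 of the 8 genes, against 71.5% of all genes tested, and was 1.44 for *Plekhg1* (limma adjusted p = 4.16e-06) and 2.93 for *Akap12* (limma adjusted p = 1.86e-06). It was not called for *Rmnd1* (−0.14, 95% interval −0.49 to 0.21) or *Fbxo5* (0.56, 95% interval −0.01 to 1.13). That of *Fbxo5* was called with sample weights (0.86, limma adjusted p = 0.000501), after the rescaling (1.03, limma adjusted p = 0.00340) and after the correction for length (0.85, limma adjusted p = 0.00655, and 0.00540 with the replicate block), and that of *Rmnd1* under quantile normalization (−0.68, limma adjusted p = 0.00471). The interaction of *Zbtb2* was −0.46, and −0.94 after the correction for length, which took that of *Plekhg1* to 0.92, both called. After the rescaling the interactions of *Zbtb2* (0.04, limma adjusted p = 0.785), *Mtrf1l* (−0.10, limma adjusted p = 0.557) and *Mthfd1l* (0.08, limma adjusted p = 0.695) were not called. The call for *Mthfd1l* (−0.40, limma adjusted p = 0.0492) was lost with no minimum or a minimum of 5 on FPKM (limma adjusted p = 0.0692 and 0.0516), with median-ratio scaling (0.0557), with the replicate block alone (0.0767) or with the correction for length (0.0534), and when 1 of 12 samples was left out (limma adjusted p = 0.0520 to 0.106), namely WT-veh 2, 3 or 4, WT-DES 2, 3 or 4, αERKO-veh 2, 3 or 4 or αERKO-DES 2, 3 or 4, and *Fbxo5* was called without WT-DES sample 1 or αERKO-veh sample 2 (limma adjusted p = 0.0127 and 0.00567).

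The flanking genes were also compared between treatments within a genotype. In WT-DES versus WT-veh 6 of the 8 tested genes were called, a share close to the 73.8% of all genes tested, and 4 of them were higher (*Ppp1r14c*, *Plekhg1*, *Akap12* and *Fbxo5*) and 2 lower (*Mtrf1l* and *Zbtb2*), beside 36.4% and 37.3% of all genes. The split depended on the scale of the samples. After the rescaling 5 of the 8 genes were called higher and 0 lower, with *Rmnd1* then higher (0.29, limma adjusted p = 0.0306), whereas under quantile normalization 2 were higher and 4 lower, with *Rmnd1* (−0.50, limma adjusted p = 0.00321) and *Mthfd1l* (−0.59, limma adjusted p = 0.00116) then lower. Only *Plekhg1* and *Akap12* were called higher under each of these 3 scalings. *Akap12* rose 4.62-fold in mean FPKM, by 2.00 on the log2 scale (SE 0.23, limma adjusted p = 1.60e-06), and *Plekhg1* rose 3.05-fold, by 1.34 (SE 0.12, limma adjusted p = 1.69e-07). All WT-DES samples of both genes were above all WT-veh samples. *Mtrf1l* fell by 0.49 on the log2 scale (SE 0.10, limma adjusted p = 0.000458) and *Zbtb2* fell by 0.35 (SE 0.06, limma adjusted p = 0.000138), again with no overlap between the groups. After the rescaling, which shifted the median of all genes by 0.40 here, *Mtrf1l* was at −0.13 and *Zbtb2* at 0.03, neither called. After the correction for length *Zbtb2* was instead at −0.71 (limma adjusted p = 1.35e-07). Under quantile normalization it was at −0.67 (limma adjusted p = 2.64e-07), and *Mtrf1l* was called lower there too. Fibroblast and stroma markers summed to 2159 to 2402 FPKM in WT-DES and to 766 to 926 in WT-veh. SV secretion markers summed to 2449 to 7953 in WT-DES and to 49304 to 57300 in WT-veh, and the part of other cell types in these changes was not tested.

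With DES in WT, *Ppp1r14c* rose by 0.42 (limma adjusted p = 0.0247), or changed by −0.06 without a call under quantile normalization. *Fbxo5* rose by 0.51 (limma adjusted p = 0.0227), or changed by 0.14 without a call under quantile normalization. After the rescaling the rise was larger, 0.68 for *Ppp1r14c* (limma adjusted p = 0.0015) and 0.88 for *Fbxo5* (limma adjusted p = 0.00073). After the correction for length it was 0.53 (limma adjusted p = 0.0062) and 0.74 (limma adjusted p = 0.0015). The call of *Ppp1r14c* was lost without WT-veh sample 1 or 2 or WT-DES sample 4 (limma adjusted p = 0.0707, 0.0517 and 0.0891), and that of *Fbxo5* without WT-veh sample 1 or 2 or WT-DES sample 2 or 4 (limma adjusted p = 0.0634, 0.0511, 0.0631 and 0.0682).

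In αERKO, 2 of the 8 genes were called with DES, against 2.85% of all genes tested, and both were lower, as were 1.52% of all genes. Of these 2 groups only αERKO-veh, where *Ppp1r14c* was higher, held it above the minimum of 1 FPKM (WT-DES did too), and without the minimum neither was called (limma adjusted p = 0.0608 for *Akap12* and 0.0505 for *Ppp1r14c*). *Akap12* was 2.16-fold lower in mean FPKM in αERKO-DES than in αERKO-veh, with no overlap and a log2 change of −0.92 (SE 0.23, limma adjusted p = 0.0454). *Ppp1r14c* was at 0.55, 1.23, 1.59 and 1.19 FPKM in αERKO-veh, all above the αERKO-DES samples, and changed by −0.65 (SE 0.16, limma adjusted p = 0.0428). Both calls lay close to the threshold, with adjusted p values of up to 0.162 when 1 sample was left out. That of *Akap12* was also lost without the variance trend (limma adjusted p = 0.0511) and with the replicate block (limma adjusted p = 0.0574). Both were lost in a model of only the groups compared (limma adjusted p = 0.0992 for *Akap12* and 0.0933 for *Ppp1r14c*) and under quantile normalization (0.110 and 0.205). Neither gene was called without WT-veh sample 1, 2 or 3, WT-DES sample 3, αERKO-veh sample 2 or 4, or αERKO-DES sample 1, 2 or 3, and only 1 of the pair was called without WT-DES sample 4, αERKO-veh sample 3 or αERKO-DES sample 4. Adipose markers summed to 91.6 to 1146 FPKM in αERKO-veh and to 17.4 to 62.8 in αERKO-DES, and skeletal muscle markers to 752 to 2287 and 597 to 861. Fibroblast and stroma markers summed to 632 to 1036 in αERKO-veh and to 521 to 627 in αERKO-DES, without overlap. The part of these cell types in the changes was not tested. For *Plekhg1* the log2 change with DES in αERKO was −0.10 (95% interval −0.36 to 0.16).

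*Syne1* (5020917 to 5551482, minus strand), which encodes nesprin-1, was below an FPKM of 1 in all samples. With vehicle its FPKM was 0.04, 0.07, 0.07 and 0.04 in WT and 0.14, 0.36, 0.22 and 0.21 in αERKO. With DES it was 0.65, 0.37, 0.32 and 0.40 in WT and 0.05, 0.09, 0.02 and 0.05 in αERKO. The order of the groups was that of *Akap12*, with WT-DES and αERKO-veh above the other groups, although WT-DES and αERKO-veh overlapped. When genes at any level were tested, *Syne1* was 0.22 higher in αERKO-veh than in WT-veh (limma adjusted p = 0.0287, 16.5% of 22638 genes called) and changed by −0.44 in αERKO-DES versus WT-DES (limma adjusted p = 2.25e-05, 61.2% called). Its longest transcript is 27908 nt and it overlaps the protein-coding *Gm10097*. The part of length or of shared reads in its values was not tested.

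*Rgs17* (5825663 to 5922400, minus strand), which speeds the inactivation of G proteins, was also below 1 in all samples. With vehicle it was at 0.28, 0.18, 0.24 and 0.23 FPKM in WT and 0.19, 0.30, 0.11 and 0.28 in αERKO. With DES it was at 0.50, 0.36, 0.67 and 0.63 in WT and 0.12, 0.13, 0.12 and 0.17 in αERKO. The WT-DES samples were above all others. In the same test of genes at any level *Rgs17* changed by −0.02 in αERKO-veh versus WT-veh (limma adjusted p = 0.942) and by −0.44 in αERKO-DES versus WT-DES (limma adjusted p = 2.41e-05).

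The other genes of the neighbourhood were then counted. Of 9 further genes that lie between the outermost of the 10 or within 1 Mb of them, 6 were tested. Of these limma called 0 in αERKO-veh versus WT-veh (0 also at an unadjusted p below 0.05), beside 26.1% of all genes tested, and 5 lower in αERKO-DES versus WT-DES, beside 36.2%. Of the 5, *Ccdc170*, *H60c* and *Ipcef1* passed the minimum of 1 FPKM only through WT-DES, the group in which they were highest, and lay below 1 FPKM in mean in both vehicle groups, so neither count carries weight. *Ccdc170*, 0.0494 Mb from *Esr1* and the nearest tested gene, changed by 0.03 with vehicle (limma adjusted p = 0.903) and by −0.91 with DES (limma adjusted p = 2.41e-05). The next, *1700052N19Rik* at 0.156 Mb, was not called in either comparison, with log2 changes of 0.07 and −0.09. None of the 6 was called with the same sign in both.

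By distance from *Esr1*, 2 of 14 tested genes up to 2 Mb were called with vehicle (14.3%), 4 of 15 from 2 to 5 Mb (26.7%), 7 of 18 from 5 to 10 Mb (38.9%), 14 of 46 from 10 to 20 Mb (30.4%) and 173 of 602 beyond 20 Mb (28.7%). With DES these shares were 85.7%, 80.0%, 100%, 78.3% and 75.2%. The bin up to 2 Mb held only 14 tested genes, among them *Ccdc170*, *H60c*, *Ipcef1* and *Ppp1r14c* with their dependence on the minimum, so nothing is read from its shares. Genes called with the same sign in both comparisons numbered 0 of 14, 1 of 15 (6.67%), 1 of 18 (5.56%), 3 of 46 (6.52%) and 29 of 602 (4.82%) from the nearest bin to the farthest. These shares lie near the 4.98% of all genes tested, so the counts mainly follow the size of the bins.

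The single gene from 2 to 5 Mb was *Lats1* (7681214 to 7716460, plus strand), a kinase of the Hippo pathway, which is named here after its values were seen. It lies 2.68 Mb from *Esr1* and was at 15.97, 19.0, 18.1 and 17.9 FPKM in αERKO-veh and at 13.0, 15.6, 12.6 and 12.03 in WT-veh. With DES it was at 14.6, 15.7, 17.6 and 19.4 in αERKO and at 11.3, 12.6, 13.3 and 13.0 in WT. Every αERKO sample was above every WT sample given the same treatment. The log2 change was 0.39 with vehicle (SE 0.09, limma adjusted p = 0.0117) and 0.39 with DES (SE 0.09, limma adjusted p = 0.00166), and their difference was 0.00 (95% interval −0.29 to 0.29) before the correction for length. Its longest transcript is 7209 nt, and after the correction for length the changes were 0.13 (limma adjusted p = 0.183) and 0.64 (limma adjusted p = 2.99e-07, 76.0% of all genes called), and their difference was −0.51 (95% interval −0.70 to −0.32, limma adjusted p = 0.000153). The other 4 genes within 20 Mb that were called with the same sign in both comparisons, also named after their values were seen, were *Gpr126*, *Cited2*, *D10Bwg1379e* and *Map7*, which lie 9.40 to 15.1 Mb from *Esr1* and were higher in αERKO. After the correction for length *Cited2*, *D10Bwg1379e* and *Map7* were still called higher in both, and *Gpr126* with DES only (with vehicle 0.12, limma adjusted p = 0.327). *Lats1* and these 4 genes were not examined under the rescaling. It shifted the median log2 change of all genes by −0.35 with DES and by 0.17 with vehicle, so the equal changes of *Lats1* hold only for the FPKM as deposited.

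**Figure D4:**
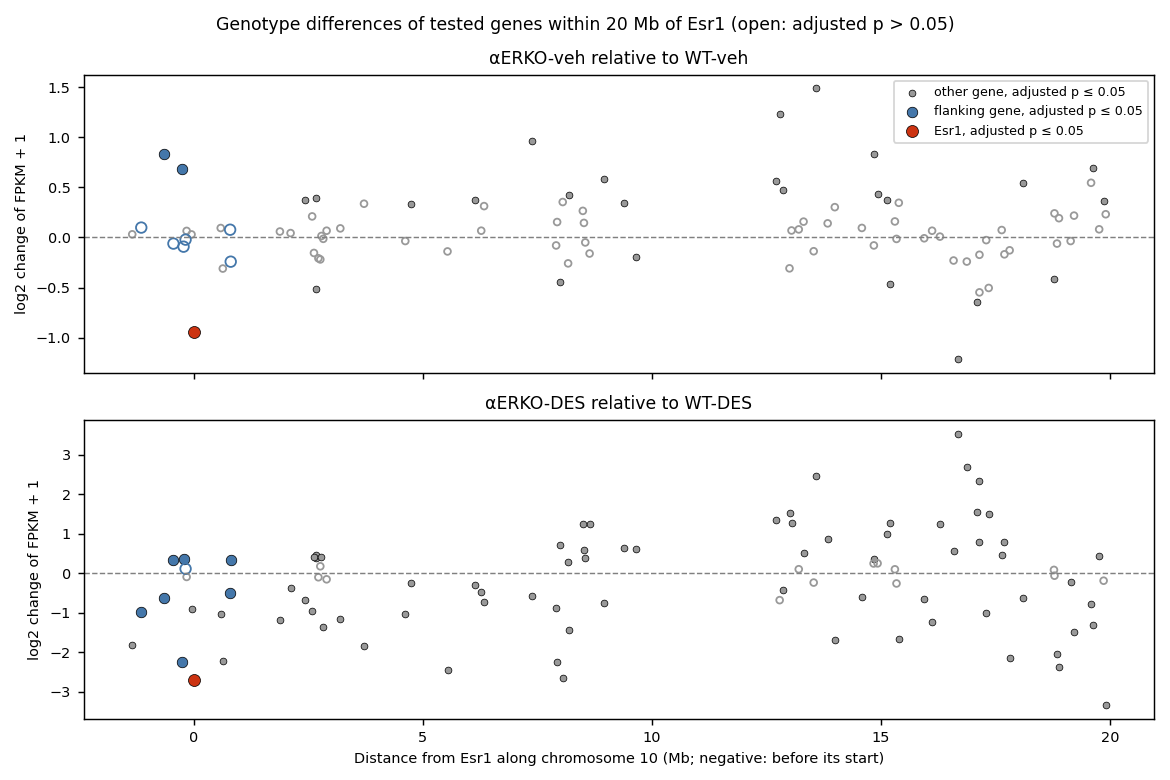
Log2 change of FPKM + 1 of every tested gene within 20 Mb of *Esr1* against its distance from *Esr1* in Mb (negative before its start), with vehicle above and with DES below; filled points had an adjusted p of at most 0.05 and the vertical axes differ. With vehicle only *Plekhg1*, *Akap12* and *Esr1* were called within 2 Mb, while with DES most points were filled at every distance.

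The levels of the 3 flanking genes with the smallest adjusted p with vehicle were set beside all tested genes over the 16 samples, as a description. *Plekhg1* was most like *Atp8b2* (Pearson r = 0.976 of log2(FPKM + 1)), *Rapgef2* (0.970) and *Insr* (0.967). *Akap12* was most like *Tmem8b* (0.990), *Ppp1r9a* (0.984) and *Peg3* (0.981), and *Mtrf1l* most like *Gm20939* (0.944), *Tgds* (0.922) and *Snhg3* (0.921). The 16 samples fall into 4 groups, so differences between group means enter these values, and no correlation within groups was computed. None of these genes is a neighbour of *Esr1*.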

How the data were processed

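RNA-seq of 16 SV samples was analysed. The authors sequenced paired ends on an Illumina HiSeq, removed reads of low quality, used TopHat 2.0.4 for alignment to mm10 (GRCm38), and used Cufflinks 2.0.2 to obtain the FPKM values, which were deposited for 31274 genes without counts. Library type, strand and gene annotation of the table are not given in the sources used here. Depth is unknown.

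Groups followed the sample labels. The test was limma 3.58.1 (R 4.3.3) on log2(FPKM + 1) (1 mean for each of 4 groups, eBayes with a variance trend, Benjamini-Hochberg adjustment over 15988 genes). These p-values measure only the spread between the samples, which may be technical in part. Names were matched to GENCODE M21, 22515 by symbol and 977 by synonym. The correction for length subtracted from each sample a lowess trend (span 0.3) on the longest transcript. Promoter sequences are from RefSeq. The steps were tested on simulated data. Python 3.11.15 (matplotlib 3.10.9, numpy 2.4.6, pandas 2.3.3) made tables and figures.

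The 10 genes, the marker lists and the tests were chosen with earlier results of these data known. Genes named are the 10, *Esr1*, any neighbour within 1 Mb called the same way in both genotype comparisons (there was none), the 3 genes most like each of the 3 with the smallest adjusted p, and *Nnt*, a gene of strain background; *Ccdc170*, *1700052N19Rik*, *H60c*, *Ipcef1*, *Lats1*, *Gpr126*, *Cited2*, *D10Bwg1379e* and *Map7* were added after their values were seen. The alternatives are named with their effect in the closing section.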

Additional observations from a re-analysis of the deposited data

Results flagged for a closer look

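The change with DES differed between WT and αERKO for 6 of the 8 tested genes, by a test of that difference in the limma model (the effect of DES in WT less its effect in αERKO, on the log2 scale, called at an adjusted p of at most 0.05, as for 71.5% of all genes tested). One of the 6, *Ppp1r14c*, passed the minimum on FPKM only through WT-DES and αERKO-veh, where it was highest, so its call adds no weight to this count. The difference was 1.08 for *Ppp1r14c*, 1.44 for *Plekhg1* and 2.93 for *Akap12*. With DES the levels of these 3 were higher in WT, whereas in αERKO their log2 changes were −0.65, −0.10 and −0.92. It was −0.40 for *Mthfd1l*, −0.46 for *Zbtb2* and −0.57 for *Mtrf1l*. After rescaling without the 20 genes of highest mean FPKM, those of *Mthfd1l*, *Zbtb2* and *Mtrf1l* were 0.08, 0.04 and −0.10 and were not called, and that of *Ppp1r14c* was 0.35 and not called under quantile normalization. Among 44 groups of 4 samples (the 10 genes and *Esr1*), 0 held a sample whose gap to the others exceeded Dixon's 95% critical value.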

How the results depend on the processing

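The 13 alternatives to the reported setting were a pseudocount of 0.1, no minimum or a minimum of 5 on mean FPKM, a model restricted to the compared groups, a model without the variance trend, arrayWeights, a replicate block, quantile normalization, median-ratio scaling, the rescaling, the correction for length alone and with the block, and an adjusted p of at most 0.01; the 16 samples were also left out in turn. The count of genes called with vehicle (2) was 1 with the restricted model, with the replicate block, with quantile normalization and at 0.01, *Akap12* being lost each time. With no minimum it was 2, but *Syne1* was then called and *Akap12* was not (limma adjusted p = 0.0597), as with the correction for length, where *Zbtb2* was called in its place. With DES it was 4 instead of 7 after the rescaling. For αERKO-DES versus αERKO-veh (2) it was 0 with no minimum, the restricted model, quantile normalization and 0.01, and 1 with the minimum of 5, no variance trend, the replicate block and the block with the correction for length. Leaving out 1 sample gave 1 to 2 genes between genotypes with vehicle, 5 to 7 with DES, 0 with the same sign in both, 4 to 6 with DES in WT, 0 to 2 with DES in αERKO and 5 to 7 in the interaction. Replicate numbers are shared across groups, but same-numbered samples deviated together (r above 0.1) in only 0 to 2 of 4 pairs for each pair of groups, so the number does not pair them. The block ended the calls of *Akap12* with vehicle and with DES in αERKO (limma adjusted p = 0.0562 and 0.0574) and of *Mthfd1l* in the interaction (limma adjusted p = 0.0767), and no other call of the 8 genes in these comparisons.

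With vehicle, uncalled changes near 0 turned sign. After the rescaling *Mthfd1l* was at 0.091, *Zbtb2* at 0.070 and *Rmnd1* at 0.13, and after the correction for length *Rmnd1* was at 0.023, also with the block. Leaving out 1 sample gave −0.00080 to 0.25 for *Ppp1r14c* and −0.033 to 0.28 for *Fbxo5*, both lowest without αERKO-veh sample 3, and −0.12 to 0.059 for *Rmnd1*, highest without αERKO-veh sample 2. With DES, *Rmnd1* was at −0.20 after the rescaling. The causes were not tested. Depth is unknown, low FPKM carries little precision, and with 4 samples a group the 95% interval was, for example, −0.32 to 0.48 for *Fbxo5* with vehicle.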

Other observations

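*Nnt* is a gene of strain background, since C57BL/6J mice carry a copy with a part deleted. With vehicle it was at 17.8 to 19.5 FPKM in αERKO and 15.3 to 18.4 in WT, a log2 change of 0.09 (95% interval −0.04 to 0.23, limma adjusted p = 0.290). With DES it was at 19.2 to 20.7 and 20.03 to 22.0, a log2 change of −0.10 (95% interval −0.23 to 0.03). In WT-DES versus WT-veh it was 0.25 higher (limma adjusted p = 0.00194, 73.8% of all genes called), so its level also differed within 1 genotype. No group stood apart as lacking *Nnt*, and FPKM over the whole gene does not show which exons were read.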
